A study of Mus musculus with 10 samples.

Results

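Collagen chain genes were taken as every gene of the count table whose symbol is Col, a number, the letter a and a number. The rule found 41 genes among the 25178 of the table. The libraries were bulk RNA-seq of lineage-depleted bone marrow, labelled as hematopoietic stem and progenitor cells, from 5 male and 5 female C57/BL6 mice at steady state, with 1 library per mouse. The labels name no transgene, treatment or age. Marrow was flushed from a single hindlimb before magnetic beads removed lineage-positive cells. Flushed marrow is known to carry some stromal and bone-lining cells along with blood cells, and the labels describe no step that removes cells of non-blood origin. Mouse GENCODE vM21 holds 44 genes of this name pattern, and Col6a4, Col6a5 and Col6a6 were not analysed here.

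Collagens are built from alpha chains that wind into a triple helix. Fibrillar collagens such as type I, the main protein of bone matrix, assemble into cable-like fibrils, and types V and XI join those fibrils and limit their width. Type IV chains form the sheets of basement membranes, type VI chains form beaded filaments around cells, and type VIII chains form short-chain networks. FACIT collagens sit on the surface of fibrils, multiplexins such as types XV and XVIII are proteoglycans of the basement membrane zone, and transmembrane collagens span the plasma membrane. In marrow, osteoblasts are the known main source of type I collagen, and reticular stromal cells lie around the sinusoids. Blood platelets and leukocytes carry collagen receptors.

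Libraries held 20754101 to 24759687 counts. Values below are CPM, that is, counts scaled to a common library size by TMM, and levels between genes are compared only per kilobase of exon. Some libraries stood apart in ways that touch the results. Male 1 had the highest summed level of the mature neutrophil markers (9087 CPM, against 216 to 2839 in the other males and 274 to 993 in females) and of the erythroid markers (35857 CPM). Summed erythroid markers were 3425 to 6784 CPM in the females and 8436 to 35857 CPM in the males, so the groups did not overlap. Of 7 genes tested, 6 were lower in females at unadjusted p under 0.05 by edgeR, where 5.41% of all genes tested were. Megakaryocyte markers summed to 1828 to 2413 CPM in the females and 1385 to 1655 CPM in the males, again without overlap. Of 11 genes tested, 8 were higher in females at unadjusted p under 0.05 by edgeR, where 3.76% of all genes tested were. The 13 stem and progenitor markers included Kit and Cd34. They summed to 2462 to 3772 CPM in the females and 3026 to 3810 CPM in the males. These markers were thus detected in every library, but their sum does not show which cells carried the RNA.

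Summed over the 41 genes, collagen level was 2626, 1636, 525, 280 and 1036 CPM in females 1 to 5 and 431, 402, 520, 931 and 2908 CPM in males 1 to 5. Male 5 and female 1 were the highest and female 4 the lowest, and the sexes overlapped over nearly the whole range. The highest library was 10.4 times the lowest, and 5.84 times without female 1 and male 5. Collagen made up 0.0292% to 0.293% of all counts. Fibrillar chains gave 97.9% of the collagen counts, and Col1a1 and Col1a2 gave 54.7% to 93.2% of the collagen counts of a library (median 82.2%). Without those chains, the other 39 genes summed to 127 to 247 CPM in the females and 99.1 to 198 CPM in the males, a 2.50-fold range.

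Every member had at least 1 count in the data, and 20 passed the filter for the sex comparison. They were 8 of 11 fibrillar chains, 2 of 6 basement membrane chains, 3 of 3 beaded filament chains, 1 of 3 short chain network chains, 3 of 9 FACIT chains, 2 of 2 multiplexins and 1 of 2 in the remaining class. None of 4 transmembrane chains passed, nor did the anchoring fibril chain Col7a1. Per kilobase of exon, the mean over 10 libraries was 86.7 ± 82.7 (SD) for Col1a1, 33.0 ± 29.6 for Col1a2, 9.64 ± 1.19 for Col5a1, 2.12 ± 1.87 for Col11a2 and 1.13 ± 0.884 for Col5a2. All other tested chains were below 1, down to 0.0531 ± 0.0239 for Col6a3. Of the 19 pairs of neighbours in this order, only Col5a1 and Col11a2 differed by more than the larger SD. By the union of exons, Col1a1 lay above Col1a2, and Col5a1 above Col11a2, in 10 of 10 libraries. Exon length matters for Col1a2: with the longest annotated transcript in place of the union of exons, its level was 76.6 and that of Col1a1 was 95.9. By that length Col1a2 lay above Col1a1 in male 2.

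**Figure D1:**
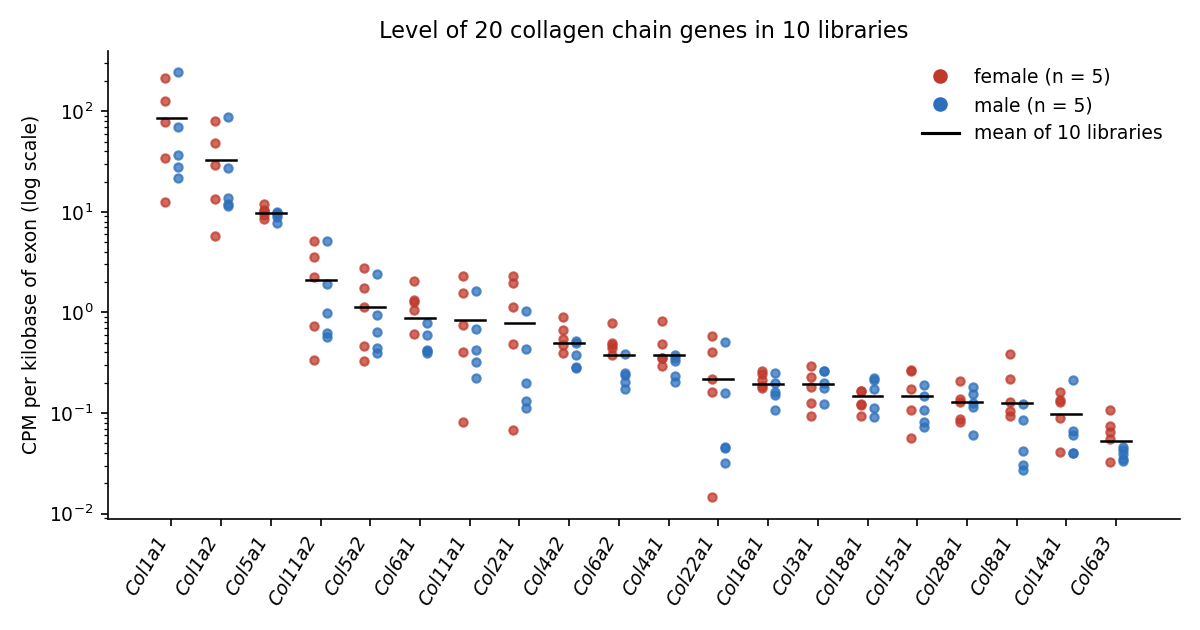
CPM per kilobase of exon (log scale) for the 20 collagen chain genes that passed the filter, in order of their mean, with each point 1 library, red for female and blue for male, and the bar the mean of 10 libraries. Col1a1 and Col1a2 lead with wide spreads, while the points of Col5a1 lie within a 1.58-fold range.

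Type I collagen forms a trimer of Col1a1 and Col1a2 chains. Col1a1 (chr11:94936224-94953042, + strand, GRCm38) stood at 1394, 835, 224, 82.0 and 518 CPM in females 1 to 5 and at 184, 143, 240, 454 and 1612 CPM in males 1 to 5. Female 1 and male 5 were the highest of their sex, female 4 was the lowest library of all, and the sexes overlapped. Its 19.7-fold range between libraries corresponds to a biological coefficient of variation (BCV, edgeR's estimate of the spread between libraries) of 0.80, against 0.17 on the trend for genes of its abundance. Col1a2 (chr6:4504814-4541544, + strand) followed the same libraries, at 985, 607, 168, 71.3 and 366 CPM in the females and 147, 142, 171, 342 and 1098 CPM in the males. The ratio of Col1a1 to Col1a2 counts stayed between 1.01 in male 2 and 1.47 in male 5, a 1.46-fold range beside the 15.4-fold range of Col1a2 itself.

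Types XI and II, whose chains are best known from cartilage, and the alpha 2 chain of type V moved with type I. Col11a2 was 35.5, 24.4, 5.00, 2.32 and 15.5 CPM in the females and 3.90, 4.26, 6.74, 13.1 and 35.1 CPM in the males. Col11a1 was 29.6, 19.7, 5.21, 1.03 and 9.66 CPM in the females and 2.81, 4.10, 5.42, 8.78 and 20.8 CPM in the males. Both were highest in female 1, lowest in female 4, and overlapped between the sexes. Col5a2, a fibril-limiting chain, was 26.2, 17.0, 4.40, 3.13 and 10.8 CPM in the females and 3.82, 6.13, 4.27, 9.02 and 23.2 CPM in the males. Col2a1, the chain of cartilage fibrils, was 21.2, 18.0, 4.49, 0.625 and 10.4 CPM in the females and 1.22, 1.04, 1.84, 3.97 and 9.57 CPM in the males, a 34.0-fold range. The FACIT chain Col22a1 was 5.38, 3.72, 1.5, 0.134 and 1.99 CPM in the females and 0.294, 0.415, 0.427, 1.44 and 4.65 CPM in the males, and its 40.2-fold range was the widest of the 20 tested chains. Cartilage's own defining markers were near 0: Sox9, a master regulator of chondrocytes, had 5 counts in all libraries together, Acan 21 and Snorc 2, and the 8 cartilage markers in the table summed to 0.282 to 1.84 CPM, with 1 of them tested.

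Across the 10 libraries, correlations of log2 CPM with Col1a1 were r = 0.996 for Col1a2, 0.990 for Col11a2, 0.965 for Col11a1, 0.955 for Col5a2, 0.949 for Col22a1, 0.918 for Col2a1 and 0.844 for Col15a1. Spearman's rho was 1, 0.976, 0.976, 0.903, 0.939, 0.891 and 0.806 in the same order. Without female 1 and male 5, the libraries farthest from the median of Col1a1, r was 0.992, 0.986, 0.962, 0.904, 0.922, 0.941 and 0.928. These values describe libraries that share their scaling, and no p is attached to them. Of the 20 tested chains, 8 were lowest in female 4, namely the type I chains with Col11a1, Col11a2, Col5a2, Col2a1, Col22a1 and Col15a1. The 7 chains whose BCV was at least 2 times its trend value were the same set without Col15a1.

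Col5a1, the alpha 1 chain of type V, did not follow. It was 103, 87.2, 87.7, 79.0 and 72.9 CPM in the females and 65.1, 82.9, 75.4, 80.6 and 84.9 CPM in the males (chr2:27886425-28039514, + strand). All libraries lay within a 1.58-fold range, and its BCV of 0.14 was below the trend of 0.17, with 78.4% of tested genes more variable. Its r with Col1a1 was 0.52 (rho 0.43), and 0.18 without female 1 and male 5. Type V trimers pair Col5a1 with Col5a2, and the ratio of their counts ran from 3.66 in male 5 to 25.3 in female 4, a 6.91-fold range. Col5a1 exons share 113 bases (1.33% of their length) with the antisense gene Gm13372, which had 496 counts against 18648 for Col5a1. Whether Col5a1 is transcribed by blood progenitors or by a steady stromal share was not tested. In a bulk library, fewer cells of a type and less RNA per cell cannot be told apart, for this and every other chain.

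The other fibrillar chain that passed the filter, Col3a1 of soft connective tissue, was 2.91, 0.908, 1.24, 2.23 and 1.80 CPM in the females and 2.56, 2.60, 1.2, 1.96 and 1.74 CPM in the males. It overlapped between the sexes, and its r with Col1a1 was -0.15 (rho -0.27, and r -0.61 without female 1 and male 5).

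**Figure D2:**
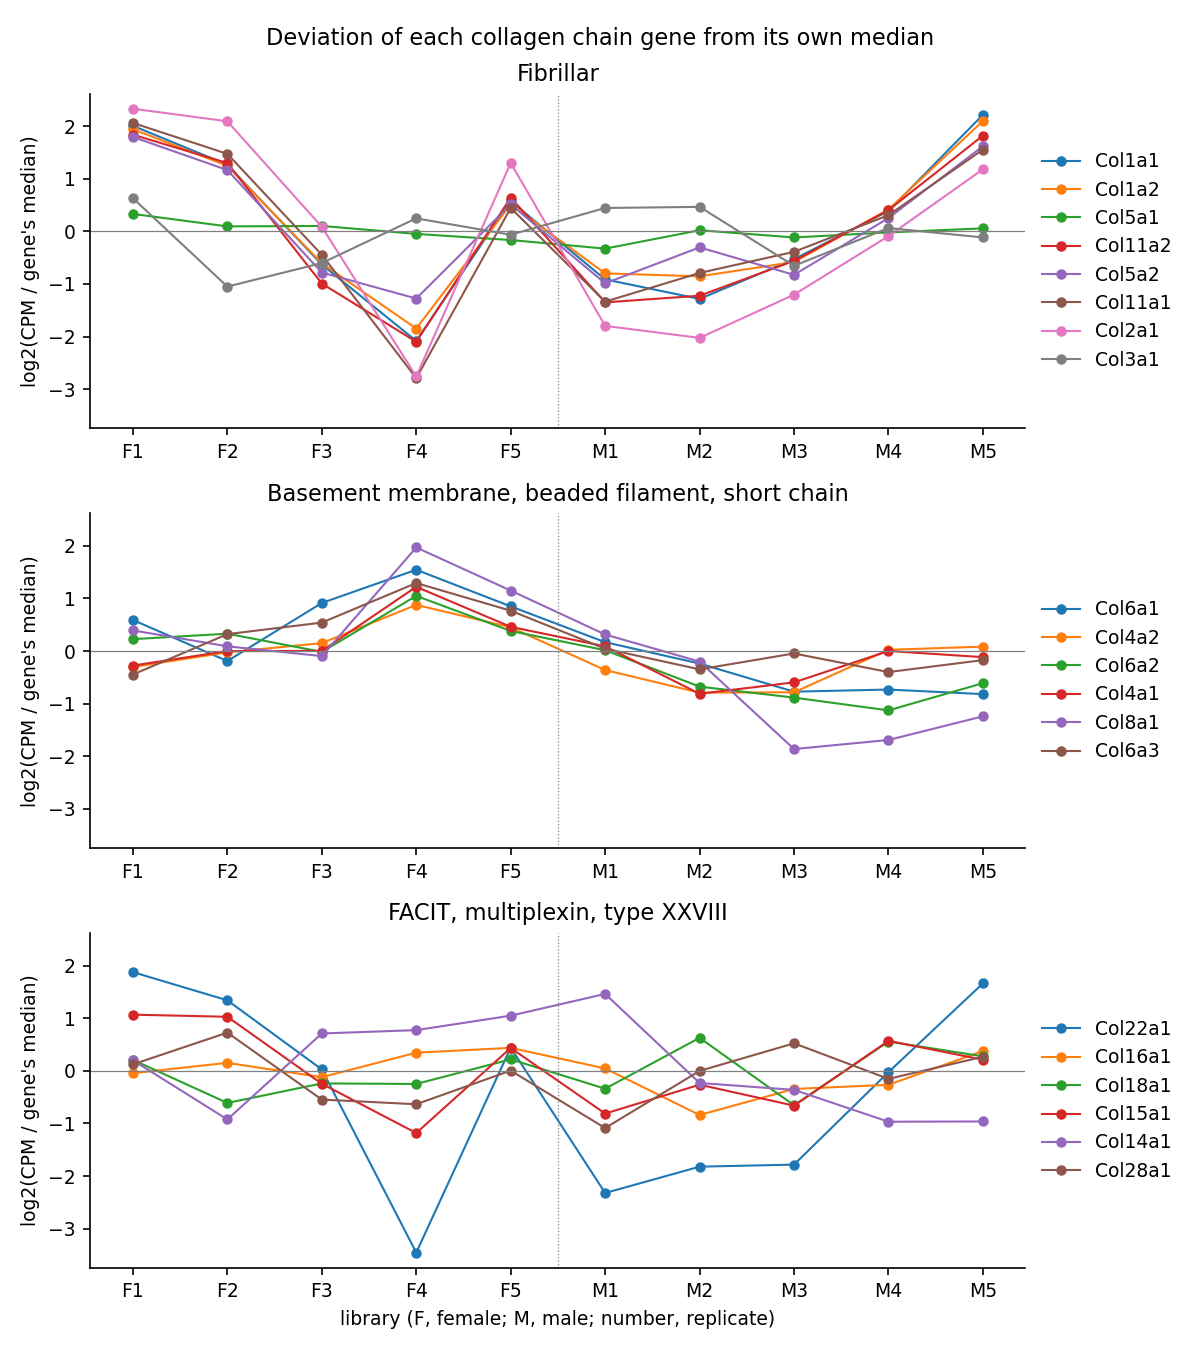
Log2 ratio of each tested chain's CPM to that gene's median over the 10 libraries, by class, for females 1 to 5 (F) and males 1 to 5 (M), with lines that only join the points of a gene since replicates have no order. In the upper panel 6 fibrillar chains dip together in female 4 while Col5a1 stays near 0, and in the middle panel all 6 chains peak in female 4.

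Chains of types VI, IV and VIII had a different profile. Col6a1 (chr10:76708792-76726168, - strand), the alpha 1 chain of type VI, was 4.61, 2.68, 5.77, 8.93 and 5.51 CPM in the females and 3.44, 2.60, 1.79, 1.84 and 1.74 CPM in the males. Col6a2, its partner in the type VI trimer, was 3.69, 3.96, 3.12, 6.52 and 4.11 CPM in the females and 3.19, 1.97, 1.71, 1.44 and 2.06 CPM in the males. For both, female 4 was the highest library, and male 1 alone reached into the female range. The ratio of Col6a1 to Col6a2 counts ran from 0.677 in female 2 to 1.85 in female 3. Col6a3, the third type VI chain, ranged from 0.388 to 1.29 CPM in the females and from 0.401 to 0.545 CPM in the males.

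The basement membrane chain Col4a1 was 2.18, 2.64, 2.65, 6.16 and 3.64 CPM in the females and 2.81, 1.51, 1.75, 2.65 and 2.44 CPM in the males. Col4a2, its partner in the type IV trimer, was 2.62, 3.18, 3.59, 5.94 and 4.42 CPM in the females and 2.52, 1.87, 1.88, 3.29 and 3.43 CPM in the males. The pair lies head to head on chromosome 8, and their ratio (Col4a2 to Col4a1) stayed between 0.896 and 1.40, a 1.57-fold range. Both were highest in female 4 and overlapped between the sexes. The short chain network gene Col8a1, whose product is a component of vessel-wall matrix, was 1.02, 0.826, 0.726, 3.04 and 1.72 CPM in the females and 0.965, 0.675, 0.213, 0.241 and 0.328 CPM in the males. Males 2 to 5 lay below every female, and male 1 alone lay within the female range.

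With Col6a1, r was 0.907 for Col8a1, 0.871 for Col6a2, 0.762 for Col6a3, 0.749 for the FACIT chain Col14a1, 0.703 for Col4a1 and 0.641 for Col4a2 (rho 0.842, 0.758, 0.624, 0.758, 0.685 and 0.552). Without females 3 and 4, the libraries farthest from the median of Col6a1, r was 0.944, 0.838, 0.47, 0.753, 0.458 and 0.32. The relations to Col8a1, Col6a2 and Col14a1 thus remained of similar size, and those to Col6a3 and the type IV chains rested partly on those libraries. These r, like the r with marker sums below, pool both sexes. Col6a1, Col6a2, Col8a1, Col6a3 and Col4a2 were higher in females at unadjusted p under 0.05 by edgeR. A shared sex difference and a shared profile within each sex cannot be told apart from these r. Col6a1 against Col1a1 gave r = -0.38 (rho -0.41), and 0.075 without females 3 and 4, so that this relation rested on those libraries.

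Upstream sequence is shown for 4 chains that stand for these profiles, namely Col5a1 for the steady level, Col11a2 and Col11a1 for chains that moved with type I, and Col8a1 for the profile that peaked in female 4. Each is the 250 bases before the RefSeq start on the gene's strand, from RefSeq at build GRCm38.p6, and none overlaps an annotated exon. The windows are chr2:27886175-27886424 (+ strand) for Col5a1, chr17:34038888-34039137 (+ strand) for Col11a2, chr3:114030290-114030539 (+ strand) for Col11a1 and chr16:57754738-57754987 (- strand) for Col8a1. RefSeq promoters matched 32 of the 41 chains. Capitals mark matches, on either strand, to GGGCGG (the GC box), CCAAT or TATAAA.
Col5a1: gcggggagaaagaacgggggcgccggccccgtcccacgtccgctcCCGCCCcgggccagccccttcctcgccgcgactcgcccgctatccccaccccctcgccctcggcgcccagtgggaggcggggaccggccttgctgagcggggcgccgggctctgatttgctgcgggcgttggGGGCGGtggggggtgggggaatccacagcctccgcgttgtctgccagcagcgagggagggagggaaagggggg
Col11a2: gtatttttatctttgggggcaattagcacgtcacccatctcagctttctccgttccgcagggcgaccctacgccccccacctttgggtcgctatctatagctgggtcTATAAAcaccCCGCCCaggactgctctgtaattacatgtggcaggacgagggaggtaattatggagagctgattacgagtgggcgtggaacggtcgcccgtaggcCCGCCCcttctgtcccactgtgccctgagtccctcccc
Col11a1: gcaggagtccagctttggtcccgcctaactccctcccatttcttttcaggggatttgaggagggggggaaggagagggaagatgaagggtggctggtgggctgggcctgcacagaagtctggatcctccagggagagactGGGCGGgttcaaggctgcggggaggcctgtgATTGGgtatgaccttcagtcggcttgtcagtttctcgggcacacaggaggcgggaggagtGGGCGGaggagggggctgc
Col8a1: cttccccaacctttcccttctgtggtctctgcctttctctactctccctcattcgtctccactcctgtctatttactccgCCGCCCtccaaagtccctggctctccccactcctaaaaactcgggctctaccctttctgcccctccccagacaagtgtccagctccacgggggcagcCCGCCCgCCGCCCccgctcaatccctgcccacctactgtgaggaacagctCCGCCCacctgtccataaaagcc

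GC boxes were found in all 4 windows, as in 32.7% of the 32851 promoter windows of this length. TATAAA was found in Col11a2 alone of these 4, beginning 143 bases before the start, and is in 12.4% of windows. A CCAAT match was found in Col11a1 alone, on the opposite strand, and is in 33.8% of windows. In Col8a1 a match pair lay 1 base apart, and no matches overlapped each other. A match is a description of the letters and not a binding site.

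The tested chains whose levels are not given above were low, among them Col15a1, which moved with type I, and Col14a1, which moved with Col6a1. Col16a1 (FACIT) ranged from 0.727 to 1.76 CPM, Col15a1 from 0.357 to 1.70 CPM, Col28a1 from 0.294 to 1.03 CPM and Col14a1 from 0.281 to 1.51 CPM over the 10 libraries. Col18a1, a multiplexin that is the parent of endostatin, was 1.16, 0.661, 0.855, 0.848 and 1.17 CPM in the females and 0.797, 1.56, 0.64, 1.48 and 1.22 CPM in the males, with no separation of the sexes. The 21 members that were not tested had 590 of the 254205 collagen counts, from 2 for Col9a2 to 96 for Col12a1, and 11 of them had at most 20 counts in all. Of these 21, 18 had 0 counts in at least 1 library, where a count of 0 allows a level of up to 0.117 to 0.156 CPM (3 counts, by library, for counting error only). Among them were 4 of the 6 type IV chains and all 3 type IX chains of cartilage. Col13a1, a transmembrane chain, had 17, 18, 2, 1 and 7 counts in females and 0, 1, 2, 0 and 16 in males, so that female 1, female 2 and male 5 were high, as for type I. Col10a1, known from hypertrophic cartilage, had 1, 21, 5, 3 and 6 counts in females and 0, 2, 0, 3 and 4 in males, so female 2 alone held 21 of its 45 counts.

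The design's question was whether marrow progenitors of the sexes differ, and no collagen chain passed. edgeR's quasi-likelihood test called 8 of 14674 genes at adjusted p under 0.05 (Benjamini-Hochberg), which is 0.0545% of genes tested, and 0 of the 20 collagen chains. At unadjusted p under 0.05, 5 of the 20 were higher in females (Col6a1, Col6a2, Col8a1, Col6a3 and Col4a2), where the share over all genes was 3.76%, and 0 were lower, against 5.41%. Col8a1 had 5, 6 and 7 counts in males 3 to 5. It thus passed the filter mainly through the females, where it was higher, which limits what its p shows. The log2 fold change, female against male, was above 0 for 18 of 20 chains with a median of 0.47, beside 48.0% and -0.01 over all genes tested. Many of these chains moved together across libraries and are not separate observations, so these counts of chains carry no test. No chain had all females above all males, against 1.06% of genes tested, and no chain had all females below all males, against 0.865%.

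The largest differences relative to their error were those of Col6a1 and Col6a2, followed by Col8a1. Females had 5.50 ± 2.27 CPM of Col6a1 and males 2.28 ± 0.736 CPM (SD, n = 5 each), a log2 fold change of 1.27 (SE 0.31, adjusted p = 0.383, edgeR). For Col6a2 the values were 4.28 ± 1.31 and 2.08 ± 0.668 CPM, a log2 fold change of 1.04 (SE 0.26, adjusted p = 0.431, edgeR). DESeq2 called both, with adjusted p = 0.0222 for Col6a1 and 0.0342 for Col6a2, among 53 genes called of 14663 (0.361%), so their call depended on the tool. Without female 4, the log2 fold changes were 1.02 for Col6a1, 0.84 for Col6a2, 1.15 for Col8a1 (1.59 with it), 0.41 for Col4a2 (0.60 with it) and 0.54 for Col6a3 (0.77 with it), and Col4a2 and Col6a3 had unadjusted p of 0.126 and 0.106 by edgeR. Beside these, the megakaryocyte and erythroid sums differed between the sexes without overlap, as given above. Mature neutrophil markers were lower in females at unadjusted p under 0.05 in 10 of 10 genes tested (median log2 fold change -2.51) and B lineage markers in 4 of 5 (median -1.67), with 0 called in either list by edgeR at adjusted p under 0.05. The share of all genes tested that were lower at unadjusted p under 0.05 was 5.41%. DESeq2 called 3 of 11 megakaryocyte, 4 of 7 erythroid, 0 of 10 neutrophil and 2 of 5 B lineage markers. The part of these cells in the collagen differences was not tested.

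Col1a1 and Col1a2 had log2 fold changes of 0.21 (SE 0.78) and 0.21 (SE 0.72), far within the spread between libraries. Col2a1 had the largest value of the 20, with 11.0 ± 8.72 CPM in the females against 3.53 ± 3.58 CPM in the males and a log2 fold change of 1.63 (SE 0.79, adjusted p = 0.506, edgeR). Only Col3a1 (-0.15, SE 0.32) and Col18a1 (-0.27, SE 0.30) were below 0.

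**Figure D3:**
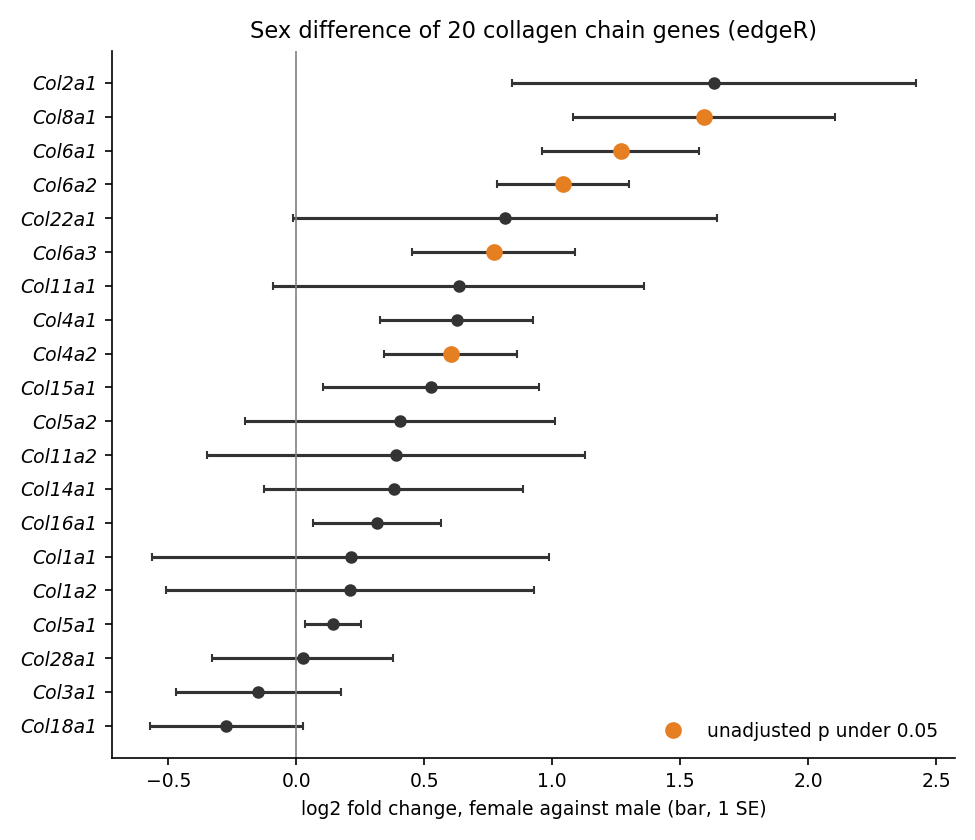
Log2 fold change, female against male, with bars of 1 SE, for the 20 tested chains from edgeR over 5 females and 5 males, with the 5 chains at unadjusted p under 0.05 in orange. The error bars of type I, type XI and Col22a1 are wide, those of Col5a1 and Col16a1 narrow, and no chain passed the adjusted threshold.

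Against the marker lists, 100 relations were computed (20 chains with the summed log2 level of mesenchymal, cartilage, endothelial, megakaryocyte, and stem and progenitor markers), and 0 passed Benjamini-Hochberg adjustment. The smallest adjusted p in two-sided permutation tests was 0.645 for Pearson's r and 0.616 for Spearman's rho, and 5 had an unadjusted Pearson p under 0.05 and 5 a Spearman p under 0.05. The sum of the whole mesenchymal list had r = 0.55 with Col1a1 (rho 0.45) and 0.08 with Col6a1 (rho 0.05). This list holds genes with opposite profiles. After that was seen, it was split by a choice made here. The groups were 8 bone-forming genes (Bglap, Bglap2, Sp7, Ibsp, Alpl, Runx2, Sparc, Spp1) and 8 genes of reticular stroma (Cxcl12, Lepr, Kitl, Adipoq, Ebf3, Foxc1, Cdh11, Pdgfra). Some placements could differ, as for Cdh11, whose r with Col1a1 was -0.04. The other 8 genes of the list (Pdgfrb, Lum, Dcn, Postn, Fn1, Mgp, Thy1, Fbln1) were placed in neither group. Among these, r with Col1a1 was 0.79 for Dcn, 0.67 for Lum and 0.05 for Postn. It was -0.12 for Pdgfrb, -0.17 for Fn1, -0.35 for Fbln1 and -0.56 for Thy1. Values of r with Col6a1 included 0.76 for Fbln1, 0.0001 for Pdgfrb and -0.14 for Fn1. Since the split was made on these data, its values carry no test.

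The bone-forming genes summed to 385, 213, 86.2, 82.3 and 143 CPM in the females and 116, 148, 95.2, 136 and 329 CPM in the males, so female 1 and male 5 led as they did for type I. The reticular genes summed to 56.8, 55.2, 65.6, 166 and 71.7 CPM in the females and 135, 72.4, 39.8, 35.9 and 29.4 CPM in the males, so female 4 led, with male 1 next. With the bone-forming sum, r was 0.95 for Col5a2, 0.91 for Col1a2, 0.88 for Col1a1, 0.88 for Col11a2, 0.86 for Col11a1, 0.81 for Col22a1 and 0.75 for Col2a1 (rho 0.92, 0.77, 0.77, 0.82, 0.82, 0.77 and 0.68). Without the libraries farthest from the median of the sum, r was 0.90, 0.80, 0.73, 0.77, 0.76, 0.64 and 0.63. With the reticular sum, r was 0.83 for Col8a1, 0.80 for Col14a1, 0.77 for Col6a1 and 0.73 for Col6a2 (rho 0.72, 0.85, 0.75 and 0.58, and r 0.82, 0.73, 0.79 and 0.62 without the farthest libraries), while Col1a1 had -0.69 (rho -0.76, and r -0.43 without them). Col6a3 had 0.62 (rho 0.52, and r 0.46 without them). The type IV chains did not keep a relation to this sum, with r = 0.58 for Col4a1 and 0.33 for Col4a2 (rho 0.48 and 0.10) and 0.057 and 0.018 without the farthest libraries. Col5a1 had 0.60 with the bone-forming and -0.39 with the reticular sum, and 0.18 and 0.07 without the farthest libraries. Among the planned lists, its r was -0.65 with stem and progenitor markers (rho -0.75) and 0.55 with megakaryocyte markers (rho 0.66). It was 0.53 with endothelial (rho 0.72), 0.34 with mesenchymal (rho 0.22) and 0.22 with cartilage markers (rho 0.31). None of these passed adjustment. Single genes of the split lists did not all follow their sum. Col1a1 had r = 0.93 with Sp7, the osteoblast transcription factor, 0.93 with Sparc, 0.86 with Alpl, 0.85 with Bglap and 0.83 with Bglap2. It had 0.06 with Ibsp, -0.14 with Runx2 and -0.18 with Spp1. Ibsp, of the bone-forming list, had r = 0.61 with Col6a1 (rho 0.42, and r 0.56 without females 3 and 4). Of the same list, Runx2 had 0.07 and Sparc -0.39 with Col6a1, and Cxcl12 of the reticular list had 0.74. Sparc alone had a mean of 96.8 CPM over the 10 libraries, where the bone-forming sum had means of 182 in females and 165 in males. Sp7 was at 0 counts in female 4 and 58 in female 1.

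**Figure D4:**
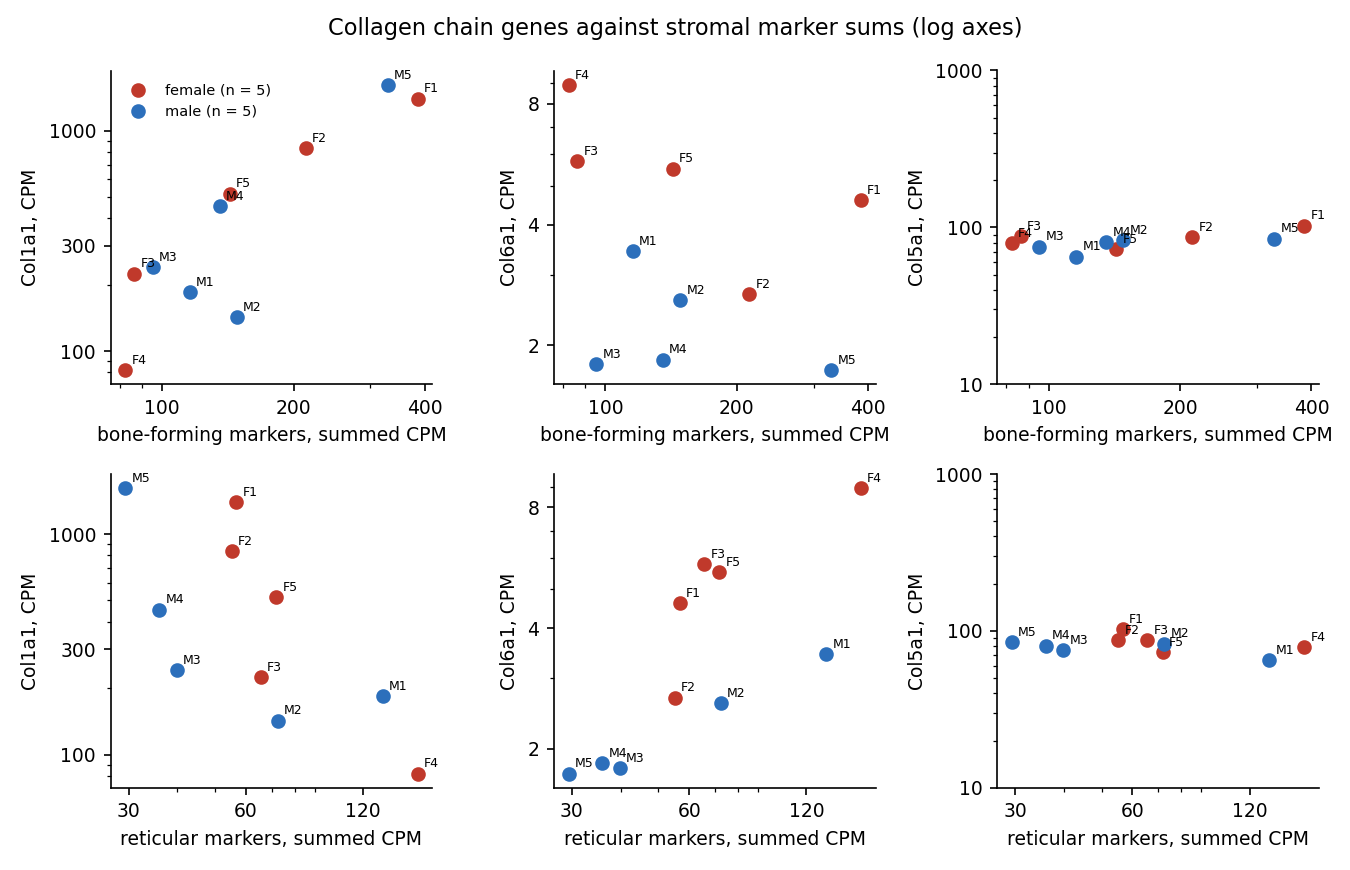
CPM of Col1a1, Col6a1 and Col5a1 against the summed CPM of 8 bone-forming markers (upper row) and 8 reticular stroma markers (lower row), log axes, each point 1 library, red for female and blue for male. Col1a1 rises with the bone-forming sum (r = 0.88), Col6a1 with the reticular sum (r = 0.77), and Col5a1 stays between 65.1 and 103 CPM across both. The marker groups were split after the data were seen, so these r carry no test.

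The machinery that modifies, exports, processes, binds and degrades collagen was described from a list of 51 genes, 49 of them in the table. edgeR called 0 of the 43 tested at adjusted p under 0.05 and had 6 at unadjusted p under 0.05, and DESeq2 called 0. Of those 6, 4 were higher in females, where 3.76% of all genes tested were, and 2 were lower, against 5.41%. Of the modification group, 13 of 14 genes in the table were tested, with 1 higher at unadjusted p under 0.05. All 6 chaperone and export genes were tested, with 0 at that level. The processing and cross-linking group had 8 of 12 tested with 1 higher, the receptors 9 of 10 tested with 2 higher, and the degradation group 7 of 7 tested with 2 lower. Group medians of the log2 fold change were 0.10, 0.17, 0.55, 0.53 and -0.05 in that order, against -0.01 over all genes tested.

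P4hb, Colgalt1, Mia2 and Mia3 varied less between libraries than type I. P4hb, a prolyl hydroxylase subunit that is also protein disulfide isomerase, was 649, 621, 644, 676 and 655 CPM in the females and 707, 510, 629, 633 and 669 CPM in the males. Colgalt1, which adds galactose to hydroxylysine, was 144, 134, 142, 132 and 135 CPM in the females and 116, 65.1, 129, 135 and 150 CPM in the males, a 2.30-fold range, and its r with Col1a1 was 0.50 (rho 0.76, and r 0.38 without female 1 and male 5). The cargo receptors of large secreted proteins Mia2 and Mia3 ranged from 86.8 to 118 and from 35.4 to 51.2 CPM over the libraries. In each of these 4 genes male 2 was the lowest library. Serpinh1, the collagen-specific chaperone HSP47, was looked at after its values were seen, at 16.5, 13.5, 7.61, 8.80 and 9.90 CPM in the females and 5.20, 4.73, 4.82, 7.10 and 15.1 CPM in the males. Like type I it was high in female 1 and male 5, and its r with Col1a1 was 0.79 (rho 0.75, and r 0.56 without these libraries).

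Bmp1, the procollagen C-proteinase, ranged from 21.1 to 30.2 CPM in the females and 12.7 to 26.3 CPM in the males, and Adamts3, a procollagen N-proteinase, from 10.2 to 15.9 and 3.17 to 13.6 CPM. Among receptors, Itgb1, the shared integrin beta 1 subunit, was 277 to 307 CPM in the females and 232 to 309 CPM in the males. Gp6, the collagen receptor of platelets and megakaryocytes, was 17.4, 23.4, 29.8, 24.0 and 21.0 CPM in the females and 17.8, 19.2, 12.6, 14.3 and 11.6 CPM in the males, a log2 fold change of 0.62 (SE 0.17, adjusted p = 0.506, edgeR), with female 1 inside the male range. Gp6 is itself a gene of the megakaryocyte marker list, which was higher in females. Lair1, an inhibitory collagen receptor of leukocytes, was 10.1, 8.84, 9.53, 12.9 and 11.5 CPM in the females and 18.0, 10.6, 11.0, 12.03 and 10.04 CPM in the males, a log2 fold change of -0.23 (SE 0.17). Mmp14, a membrane-bound collagenase, was 62.7 to 70.9 CPM in the females and 41.5 to 82.0 CPM in the males. Mmp9, a gelatinase stored in neutrophil granules, was 8.59 to 56.6 CPM in the females and 10.9 to 264 CPM in the males, with the highest value in male 1, the library with the most neutrophil marker counts.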

How the data were processed

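Per the submitters' processing notes, STAR, featureCounts and DESeq were named, with builds GRCm38.p6 and mm10. The values used were the deposited raw counts per gene. Versions and the strand setting were not given in the sources used here. A second deposited table holds the authors' size-factor scaled signal, which is the counts divided by 1 factor per library (0.852 to 1.13), and it was used only to check the counts. Each sex has 5 libraries of different mice.

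Genes were filtered with filterByExpr by sex, leaving 14674, scaled with TMM and tested with edgeR 4.0.16 (quasi-likelihood, robust; R 4.3.3) for sex alone, called at a Benjamini-Hochberg adjusted p under 0.05. CPM uses TMM-scaled totals, and levels per kilobase use the union of GENCODE vM21 exons. Correlations use log2 CPM with a prior count of 2, with 100000 resamples for the marker lists. The test was checked on simulated data. Alternatives were DESeq2 1.42.0, DESeq2 size factors in edgeR, no filter, 1 CPM in 5 libraries, a replicate block, and leaving libraries out. Limits for 0 counts cover counting error only.

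Members, marker and pathway lists were chosen with earlier results of these data known. Values in every library were given for the tested members among the 12 of highest mean CPM and for the 3 of smallest p in each direction (2 were below 0), and values or ranges for the 2 pathway genes of highest CPM per group, with Gp6 and Lair1. Values for other members were given by class or range, and those for Col13a1, Col10a1 and Serpinh1 were chosen after they were seen.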

Additional observations from a re-analysis of the deposited data

Results flagged for a closer look

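In 5 of 40 groups searched (20 chains in each sex, 5 libraries a group), the highest library stood apart from the other 4 by more than Dixon's 95% critical value of 0.71 for the gap over the range. Chance marks about 1 in 20 groups only where groups are independent and normally distributed. The search used CPM without logs, and most marks are male 5 in chains that moved together. The count of marks is therefore not compared with that share. Male 5 stood apart for Col1a1 (1612 CPM, against 143 to 454 in the other males), Col1a2 (1098 CPM, against 142 to 342), Col5a2 (23.2 CPM, against 3.82 to 9.02) and Col22a1 (4.65 CPM, against 0.294 to 1.44). Across the 10 libraries the r of Col1a2, Col5a2 and Col22a1 with Col1a1 was 0.996, 0.955 and 0.949. Male 1 stood apart for Col14a1 (1.51 CPM, against 0.281 to 0.467), and it also had the highest reticular stroma sum of the males.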

How the results depend on the processing

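No collagen chain was called by edgeR under any filter, scaling or left-out library that was run, and DESeq2 called 2 (Col6a1 and Col6a2). Over all genes, 53 were called by DESeq2 and 8 by edgeR. At unadjusted p under 0.05 the count of chains was 5, and it was 8 with no filter, 3 with 1 CPM in 5 libraries, and 3 to 7 with 1 library left out (3 without female 5 and 3 without male 2). With no filter all 41 chains enter, and with 1 CPM in 5 libraries 15 do, without Col8a1 and Col6a3. The 10.4-fold range of the summed level was 5.84 without female 1 and male 5, chosen after seeing the data. Without males 1 and 2, the log2 fold change was -0.33 for Col1a1, -0.29 for Col1a2, -0.14 for Col11a2 and 0.14 for Col3a1. Leaving out 1 library gave -0.35 to 1.26 for Col1a1, -0.33 to 1.13 for Col1a2, -0.093 to 1.23 for Col11a2, -0.071 to 1.08 for Col5a2 and -0.38 to 0.023 for Col3a1. The cause of these changes was not tested. Of 254 gene and setting pairs, 239 kept their direction and side of the threshold, 13 reversed and 2 passed it.

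The labels do not say that equal replicate numbers pair the mice. Same-numbered libraries correlated between -0.30 and -0.01 in their deviations from the group means, which cannot exclude a shared litter or day. With a replicate block 5 genes were called, of which 0 were collagen chains, and 4 chains had unadjusted p under 0.05. Chains below about 1 CPM rest on few counts.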

Other observations

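Col1a1, Col6a1 and Col5a1 were chosen as anchors after their values were seen, and each was compared with the 13081 genes of mean 1 CPM or more by r of log2 CPM over 10 libraries. The 20 genes most like Col1a1 (r from 0.887 to 0.996) held 6 collagen chains and 14 other genes. These were the matrix protease Mmp2, the bone matrix protein Sparc, the lysyl hydroxylase Plod2, Fntb, Cpz, Mcoln1, Gpr180, Kcnip2, Ticam1, Pgrmc2, Nsl1, Smpd3, Fosb and Gba2. Those most like Col6a1 (r from 0.864 to 0.962) held 1 collagen chain, Col6a2. In order of r they began with the actin-binding Palld, the laminin chain Lamb1, Tspan17, Peg10, Igfbp5, Ltbp2 and Tspan9, and further down held Prelp and Loxl3 as well as Clec9a and Oas1a. Those most like Col5a1 (r from 0.833 to 0.942) held 0 collagen chains, and were led by the mitochondrial enzyme Pck2, Sh2d4a, the endothelial gene Plvap and the erythropoietin receptor Epor. The anchors differ in range, since Col5a1 moved only 1.58-fold, so its likeness rests on small differences. These are descriptions over 10 libraries that share their scaling, with no test.

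Endothelial markers summed to 363 to 408 CPM in females and 287 to 400 CPM in males, and 13 of 14 were tested with 3 higher in females at unadjusted p under 0.05, where 3.76% of all genes tested were. Their part in the type IV and type VIII values was not tested.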
